A study of Sus scrofa with 12 samples.

Results

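The Wnt genes described here are the secreted WNT ligands, the R-spondins, the LGR and frizzled receptors, the secreted antagonists of the SFRP and DKK families, and 6 genes that cells switch on as feedback when the pathway is active (AXIN2, LEF1, NKD1, NKD2, SP5 and NOTUM). Their rows were picked by gene symbol, from a list drawn up with earlier results of these data known. Of the 24358 genes in each expression table, 47 belong to the set: 17 ligands, 4 R-spondins, 2 LGR receptors, 10 frizzled receptors, 8 secreted antagonists and 6 feedback targets. No row carried the symbol LGR6 or WNT4, and these genes were not analysed here. WNT5B, whose row carries no symbol in the tables and was named through its Ensembl identifier, lies outside the rule and is given once for reference.

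Poly(A) RNA from cultured pig cells was sequenced in 12 libraries, 3 in each of 4 groups. WT PC-iPS are unedited induced pluripotent stem cells made from pig pericytes, and the knock-in positive PC-iPS cells are 3 NANOG tdTomato lines, numbered 1 to 3, made from them by inserting a FLAG tag and a tdTomato reporter at NANOG. The other 2 groups are reporter cells kept with Activin A, a ligand of the TGF-β family, or with SB431542, an inhibitor of the Activin and TGF-β type I receptors. The first question was how the knock-in positive cells differ from WT cells, and the second was how the reporter cells differ between Activin A and its inhibitor.

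Each knock-in line came from a separately transfected, drug-selected and sorted culture, with colonies picked and regrown. The study describes the cultures as made from mixed populations of transformed cells. It states that cells of one culture may carry different insertions or none. WT and knock-in positive cells were grown in LCDMV medium, which contains LIF, CHIR99021, dimethindene maleate, minocycline and vitamin C. Per the study's methods the treated cells were kept in the same medium without LIF, although the sample labels name LCDMV for every library. CHIR99021 inhibits the kinase GSK3 and thereby activates Wnt signaling inside the cell, and it was present in all 4 groups. Feeder cells were depleted by a short plating step before RNA was extracted. The study's cytokine screen was run without feeder cells, and whether the sequenced treated cells were grown on feeders is not stated. The treated libraries are numbered 1 to 3, but the labels do not say from which line each came, nor whether the libraries of a group are separate cultures, so the p-values below measure the spread between these libraries.

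In canonical Wnt signaling a secreted WNT binds a frizzled receptor and an LRP5 or LRP6 co-receptor, which stops the destruction of β-catenin and lets it act with TCF and LEF factors in the nucleus. R-spondins bind LGR receptors and keep frizzled receptors at the surface by blocking the ubiquitin ligases RNF43 and ZNRF3, while SFRP proteins trap WNTs and most DKK proteins block the co-receptors. The pathway is a regular component of pluripotent stem cell culture, where it can favor self-renewal or differentiation depending on the state of the cells.

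Expression is given as FPKM, the authors' unit, in which fragments are divided by transcript length and by the size of the library. FPKM is scaled by length, so levels can be set side by side between genes. It summed to between 364241 and 390320 over the genes of a library, between 15339 and 15827 genes were above 0, and total read depth is unknown. The relative depth estimated from the smallest values, with knock-in library 1 set to 1, was 0.564 to 0.635 in WT and 0.730 to 1 in the other groups, so genes with low values were measured least finely in WT. NANOG itself read 52.0, 101 and 70.4 FPKM in lines 1 to 3 against 9.71, 16.4 and 27.6 in WT, and 109, 195 and 157 with Activin A against 11.8, 27.2 and 11.8 with SB431542. Pig NANOG has 2 loci and its row was named through its identifier, so these values do not tell the loci apart. Among markers of other cell types, the summed level of 7 genes of simple epithelium and trophectoderm ranged from 55.2 to 492 FPKM among knock-in lines, 48.2 to 423 with Activin A, 102 to 929 with SB431542 and 7.35 to 13.0 in WT. It was highest in library 2 of each of the first 3 of these groups and came mostly from KRT8 and KRT18, while CDX2 was at 0 in all 12 libraries. KRT8, KRT18, CDH1 and TFAP2C were higher in the lines than in WT without overlap. GATA3 and EPCAM overlapped, EPCAM with the lower mean in the lines. The 9 fibroblast, feeder or pericyte markers summed to 31.1 to 54.4 FPKM in the knock-in lines, 11.0 to 18.2 in WT, 51.6 to 78.2 with Activin A and 21.0 to 33.0 with SB431542, but the members did not move as one. COL1A2, DCN, PDGFRB and THY1 were higher in the lines than in WT without overlap, COL1A1 was lower without overlap (0.345 to 0.782 against 0.838 to 1.46), and COL3A1, LUM, PDGFRA and POSTN overlapped, the last 3 with lower means in the lines. The 5 pluripotency markers found summed to 280 to 490 FPKM in the lines and 134 to 153 in WT, where NANOG, LIN28A and SOX2 were higher without overlap and SALL4 and DNMT3B overlapped. Of the 4 endoderm markers GATA6 alone was above 0.0366 FPKM in any library, at 12.5 to 18.8 in the lines and 6.32 to 8.98 in WT. The 3 neural markers went different ways, since NES read 125 to 148 FPKM in the lines and 65.8 to 86.3 in WT, PAX6 0.858 to 4.12 and 8.96 to 26.8, and SOX1 overlapped. The 4 mesendoderm markers together summed to at most 0.383 FPKM in every library. In bulk RNA, more cells of a kind and more RNA per cell cannot be told apart.

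**Figure D1:**
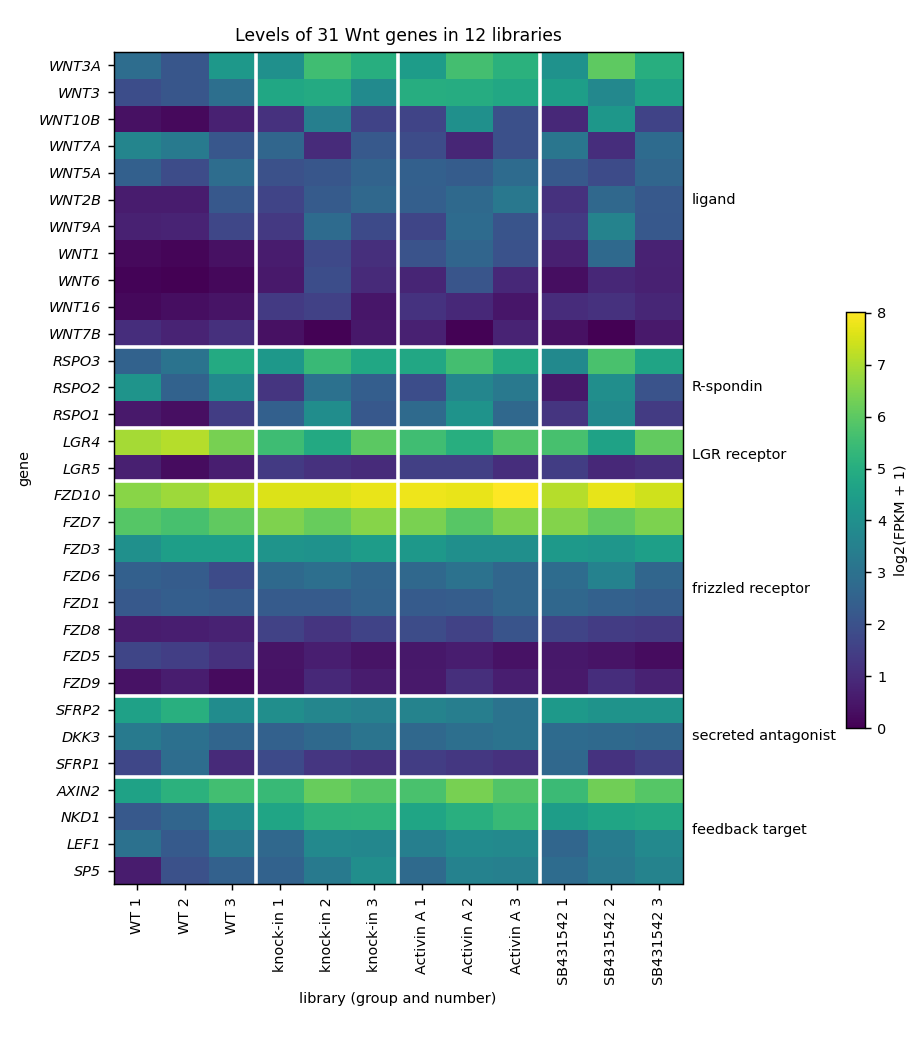
Each row of the heat map is one of the 31 Wnt genes that reached 1 FPKM in any library, grouped by role, and each column is 1 of the 12 libraries. Color gives log2(FPKM + 1); FZD10, FZD7, AXIN2 and LGR4 are bright in all columns, and the WNT3 and NKD1 rows are darkest in the 3 WT columns.

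A small number of the genes carried most of the signal. Of the 47, 31 reached 1 FPKM in at least 1 library, 15 were at or above 1 FPKM in all 12, and 5 were at or above 10 FPKM in all 12. These 5 were the receptors FZD10, FZD7, FZD3 and LGR4 and the target AXIN2. The other 16 stayed below 1 FPKM everywhere, namely WNT2, WNT8A, WNT8B, WNT9B, WNT10A, WNT11, FZD2, FZD4, SFRP4, SFRP5, DKK1, DKK2, DKK4, NKD2, NOTUM and RSPO4, and RSPO4 was listed at 0 in all 12. FZD10 had the highest mean of any of the genes in each group, although LGR4 exceeded it in WT libraries 1 and 2, and WNT3A had the highest mean of the ligands in the knock-in, WT, Activin A and SB431542 groups.

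In the comparison of knock-in positive with WT cells, 3 of the genes rose and 1 fell. The ligand gene WNT3, the R-spondin gene RSPO1 and the feedback target NKD1 were higher in all 3 knock-in lines than in any WT library, and the R-spondin receptor gene LGR4 was lower in all 3. A gene was called at a log2 fold change of at least 1 in size, on the log2(FPKM + 1) scale, with a limma adjusted p of at most 0.05 (Benjamini-Hochberg over the 14014 genes tested, two-sided). Of these genes, 37 passed the filter on low values, which asked for 3 or more libraries of 6 at 0.1 FPKM or above, and 4 were called, whereas 324 of all 14014 genes tested were called, a background of 2.31%. Higher calls were 1.61% and lower calls 0.706% of all genes. NKD2 and WNT11 passed the filter through one group only, the one in which they were higher.

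Over the 37 genes the median log2 fold change was 0.51, against -0.00 over all genes tested, and 25 of 37 were above 0, against 49.8% of all genes. The knock-in and WT values did not overlap for 20 of the 37, 15 higher (WNT11 among them) and 5 lower (NKD2 among them), where 35.7% of all genes had no overlap, 19.0% higher and 16.7% lower. At an adjusted p of at most 0.05 without the fold criterion, 5 were higher and 3 lower, beside 7.22% of all genes, 4.88% higher and 2.34% lower. With 3 libraries against 3, the smallest two-sided p an exact permutation test can give for a single gene is 0.1, which is the value for every gene without overlap.

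**Figure D2:**
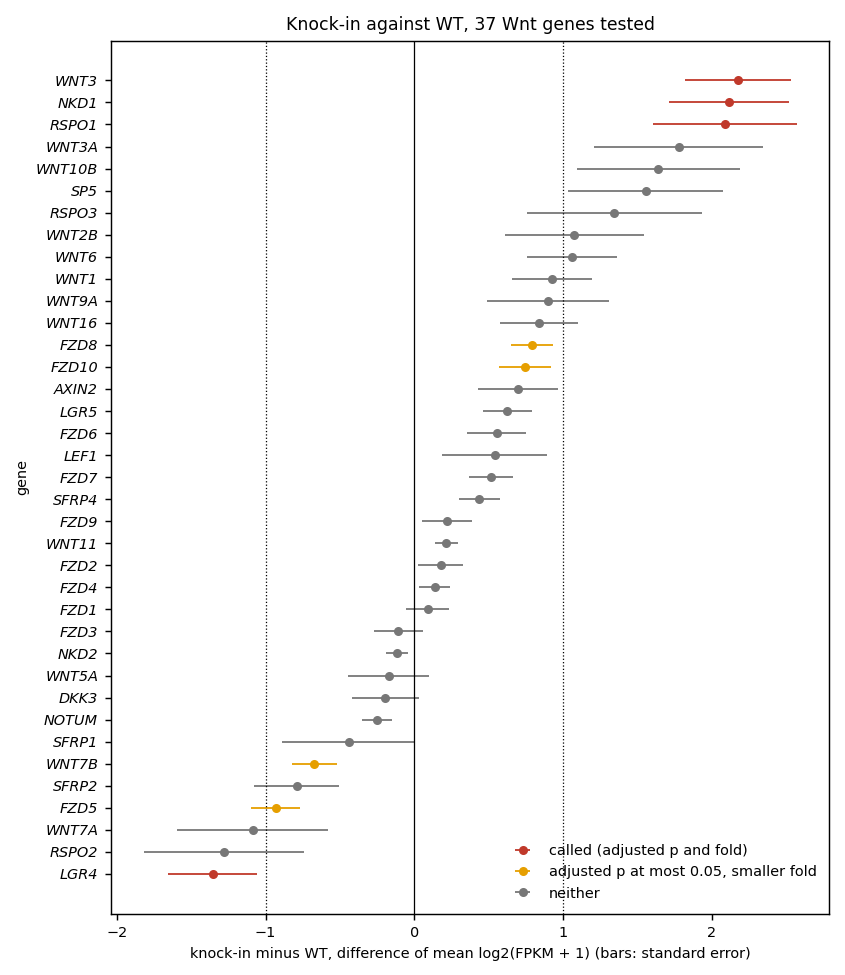
Points give the difference between the mean log2(FPKM + 1) of 3 knock-in and 3 WT libraries for each of the 37 Wnt genes tested, with bars of 1 standard error from limma; dotted lines mark a difference of 1 in either direction. WNT3, NKD1 and RSPO1 lie at the upper end and LGR4 at the lower end, all 4 called.

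WNT3 encodes a canonical WNT ligand of early development. Knock-in lines 1, 2 and 3 gave 26.6, 28.8 and 13.1 FPKM, against 2.73, 3.40 and 6.64 in WT libraries 1, 2 and 3. The lowest knock-in line was still above the highest WT library. The log2 fold change was 2.18 ± 0.35 (SE, n = 3 against 3; limma adjusted p = 0.0205), and the knock-in mean was 5.36 times the WT mean. WNT3A, a close relative of WNT3 and the ligand with the highest mean level, read 15.4, 45.8 and 31.6 FPKM in the lines and 6.22, 3.42 and 18.5 in WT. WT library 3 exceeded knock-in line 1, so the groups overlapped, and the limma adjusted p was 0.0965 at a log2 fold change of 1.78 ± 0.57 (SE).

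Several ligands present at lower levels showed no overlap between the groups but did not pass the test. WNT10B, a canonical ligand, read 1.19, 10.1 and 2.03 FPKM in the lines and 0.274, 0.144 and 0.666 in WT. Most of the difference lay in line 2, and the limma log2 fold change of 1.64 ± 0.55 (SE) had an adjusted p of 0.105. WNT6 read 0.475, 2.72 and 0.949 FPKM in the lines and 0.0478, 0 and 0.125 in WT, with a log2 fold change of 1.06 ± 0.30 (SE) and a limma adjusted p of 0.0755. WNT1, the founding member of the family, read 0.521, 2.44 and 1.14 FPKM against 0.155, 0.0905 and 0.294, and WNT16 read 1.54, 1.94 and 0.394 against 0.132, 0.218 and 0.326. Their limma adjusted p-values were 0.0791 and 0.0920.

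WNT7A and its paralog WNT7B were ligands with lower means in the knock-in lines. WNT7B read 0.279, 0.0402 and 0.430 FPKM in the lines and 1.08, 0.726 and 1.15 in WT, without overlap. The log2 fold change, -0.67 ± 0.15 (SE, limma adjusted p = 0.0410), passed the p threshold but not the fold criterion. WNT7A read 5.30, 0.964 and 3.73 FPKM against 11.5, 8.96 and 3.50, and WT library 3 lay below lines 1 and 3. The limma adjusted p was 0.205. WNT5A, the best known non-canonical ligand, had overlapping values of 2.97 to 4.82 FPKM in the lines and 2.67 to 6.32 in WT. Its log2 fold change was -0.17, with a 95% interval from -0.81 to 0.47. WNT2B and WNT9A also overlapped, at limma adjusted p-values of 0.178 and 0.196. For reference, WNT5B read 9.99 to 15.6 FPKM in the lines and 6.96 to 9.47 in WT, with a limma adjusted p of 0.0909. Summed over the 17 ligands, lines 1 to 3 reached 58.2, 107 and 66.8 FPKM and WT 28.0, 21.4 and 43.5, so the lowest line exceeded the highest WT library. WNT3, already called, made up 26.6 FPKM of the sum in line 1 and 6.64 in WT library 3. Without WNT3, line 1 would lie below WT library 3. The R-spondin and secreted antagonist sums overlapped between lines and WT. The frizzled and feedback target sums were higher in the lines without overlap, and the LGR sum was lower without overlap. NKD1, already called, made up 25.4 of 77.4 FPKM of the feedback target sum in line 1 and 14.1 of 74.7 in WT library 3. Without NKD1, line 1 would lie below WT library 3 in that sum. LGR4, also called, made up most of the LGR sum, and LGR5 went the other way.

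Of the R-spondins, only RSPO1 was called. RSPO1 read 4.46, 14.3 and 3.60 FPKM in the lines and 0.462, 0.255 and 1.72 in WT. All 3 lines lay above WT, line 2 the furthest, and the log2 fold change was 2.09 ± 0.48 (SE, limma adjusted p = 0.0452). RSPO3, the R-spondin with the highest mean level, read 18.5, 42.5 and 26.3 FPKM against 4.72, 7.28 and 28.8. WT library 3 lay inside the range of the lines, and the limma adjusted p was 0.180. RSPO2 pointed the other way, with 1.35, 6.95 and 4.26 FPKM in the lines and 16.8, 4.68 and 13.0 in WT. Here WT library 2 lay below line 2, and the limma adjusted p was 0.167.

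Of the LGR receptors, to which R-spondins bind, LGR4 was called and LGR5 was not. LGR4 was the most abundant of them and read 44.6, 28.1 and 62.9 FPKM in the lines and 122, 137 and 82.5 in WT. Every knock-in line lay below every WT library, with a log2 fold change of -1.36 ± 0.30 (SE, limma adjusted p = 0.0402). LGR5, widely used as a stem cell marker, read 1.58, 1.21 and 0.986 FPKM against 0.623, 0.193 and 0.594. The values did not overlap, and the limma adjusted p was 0.0603 at a log2 fold change of 0.63.

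None of the 10 frizzled receptors was called, but 3 of them passed the p threshold. FZD10 read 194, 191 and 215 FPKM in the lines and 94.8, 113 and 156 in WT, so all 3 lines were above WT. The log2 fold change was 0.74 ± 0.18 (SE, limma adjusted p = 0.0485). FZD8 was also higher at that threshold, with 2.00, 1.34 and 2.03 FPKM against 0.520, 0.581 and 0.705 (log2 fold change 0.79, limma adjusted p = 0.0245). FZD5 was lower, with 0.333, 0.591 and 0.327 FPKM against 2.22, 1.78 and 1.19 (log2 fold change -0.93, limma adjusted p = 0.0248). FZD7, the receptor with the second highest level, read 69.8 to 93.4 FPKM in the lines and 50.2 to 66.1 in WT. It did not overlap, but the limma adjusted p was 0.0753. FZD6 did not overlap either (limma adjusted p = 0.123), and FZD1, FZD2, FZD3, FZD4 and FZD9 overlapped. Of these, FZD3 stood at 15.3 to 21.6 FPKM over the 6 libraries and its log2 fold change was -0.11, with a 95% interval from -0.49 to 0.27.

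The secreted antagonists present above 1 FPKM were SFRP2, DKK3 and SFRP1. SFRP2 read 14.5, 11.9 and 10.5 FPKM in the lines and 23.1, 32.6 and 13.8 in WT. WT library 3 lay between lines 1 and 2, and the limma adjusted p was 0.123 at a log2 fold change of -0.79. DKK3, a divergent member of the family, read 4.60 to 7.40 FPKM against 5.17 to 8.95, and SFRP1 read 1.16 to 2.52 against 0.934 to 6.21, both with overlap. SFRP4, below 1 FPKM, went the other way without overlap, at 0.743, 0.786 and 0.369 FPKM in the lines and 0.365, 0.115 and 0.128 in WT. Its log2 fold change was 0.44 (limma adjusted p = 0.0965). DKK1, the classic co-receptor antagonist, did not exceed 0.261 FPKM in any of the 12 libraries. It did not pass the filter in this comparison.

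Of the feedback targets, NKD1 differed most. NKD1, an inhibitor that binds Dishevelled, read 25.4, 35.0 and 36.0 FPKM in the lines and 3.67, 5.10 and 14.1 in WT. The log2 fold change was 2.12 ± 0.40 (SE, limma adjusted p = 0.0296), and the knock-in mean was 4.21 times the WT mean. SP5, a transcription factor induced by β-catenin, read 4.73, 8.78 and 14.6 FPKM against 0.536, 3.01 and 4.59. Line 1 lay just above WT library 3, and the log2 fold change of 1.55 ± 0.52 (SE) had a limma adjusted p of 0.108. AXIN2, a scaffold of the β-catenin destruction complex and the most used readout of the pathway, read 41.5, 70.2 and 57.0 FPKM against 23.5, 34.2 and 46.7. WT library 3 exceeded line 1, and the limma adjusted p was 0.145 at a log2 fold change of 0.70. LEF1, a nuclear partner of β-catenin, overlapped at 5.48 to 12.6 FPKM against 3.86 to 8.70 (limma adjusted p = 0.344). NOTUM, which removes the lipid from WNTs, was low and went the other way, at 0.209, 0.261 and 0.282 FPKM in the lines and 0.657, 0.397 and 0.426 in WT. NKD2 was lower still, at 0.0393 to 0.0910 FPKM against 0.150 to 0.160. Neither gene overlapped between the groups, and neither passed the test.

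The 4 calls depended on which libraries entered the fit. With each library omitted in turn, WNT3 and LGR4 remained called in 2 of 6 fits, those without knock-in line 3 or WT library 3, and NKD1 and RSPO1 in 1, that without WT library 3. Without knock-in line 1, knock-in line 2, WT library 1 or WT library 2 in turn, 0 of the genes were called, and between 145 and 240 of all genes were. Without WT library 3, 9 were called, adding WNT3A, WNT2B, RSPO3, FZD5 and SFRP2, among 446 of all genes. Without knock-in line 3, WNT16 was called beside WNT3 and LGR4, among 310 of all genes. A smaller pseudocount of 0.1, which gives low genes more weight, called 8 among 538 of all genes, adding WNT1, WNT6, FZD5 and FZD8. Without a filter on low values only WNT3 was called, among 199 of all genes. The limma adjusted p in that fit was 0.0596 for NKD1, 0.0795 for LGR4 and 0.0887 for RSPO1. Without a variance trend RSPO1 was not called (limma adjusted p = 0.0507) and the other 3 were, among 310 of all genes. The direction of WNT3, NKD1, RSPO1 and LGR4 was the same in all 6 fits, with log2 fold changes of 1.97 to 2.52, 1.77 to 2.62, 1.55 to 2.42 and -1.63 to -1.06. The summed epithelial, fibroblast and pluripotency markers and the single genes GATA6, NES and PAX6, given above, also differed between knock-in and WT without overlap, PAX6 being the one that was lower in the lines, and their part in these results was not tested.

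Among 60 further genes of the pathway, listed by function, 58 had a row and 51 were tested. CCND1 and RNF43 rose and none fell, 2 calls of 51 beside the 2.31% of all genes called. CCND1, which encodes cyclin D1 and is a common Wnt target, read 106, 112 and 101 FPKM in the lines and 44.5, 46.5 and 49.7 in WT, with a log2 fold change of 1.16 ± 0.09 (SE, limma adjusted p = 0.00198). The values within each group were close, and CCND1 was called whichever library was omitted, in all 6 fits. RNF43, the ubiquitin ligase that clears frizzled receptors, read 3.76, 4.34 and 2.06 FPKM against 0.303, 0.273 and 1.33 (log2 fold change 1.44 ± 0.30, limma adjusted p = 0.0346) and was called in 2 of the 6. ZNRF3, its relative, read 20.6, 23.7 and 27.4 FPKM against 6.79, 14.0 and 18.8, without overlap, at a limma adjusted p of 0.117. The co-repressor gene TLE3 and the kinase gene CSNK1D were higher at the p threshold only, with log2 fold changes of 0.74 and 0.55. The machinery of ligand release showed no difference beyond the spread. WLS, the WNT carrier, had a log2 fold change of 0.02 (95% interval -0.23 to 0.27), and PORCN, the WNT acyltransferase, one of 0.16 (95% interval -0.29 to 0.61). CTNNB1, which encodes β-catenin, read 221 to 271 FPKM in the lines and 283 to 313 in WT (limma adjusted p = 0.150).

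In the comparison of Activin A with SB431542, none of the Wnt genes was called. Of 39 tested, 0 passed both thresholds and 0 passed the limma adjusted p alone, while 13 of all 13999 genes tested were called, a background of 0.0929%, and 0.136% passed the p alone. At an unadjusted p of at most 0.05 there were 5, SFRP2, WNT2, WNT3, FZD10 and FZD8, where 12.8% of all genes lay. The groups did not overlap for 3 genes that were higher with Activin A (FZD10, WNT2 and WNT3) and 2 that were lower (SFRP2 and WNT11), beside 20.0% of all genes, 9.19% higher and 10.8% lower. The median log2 fold change was 0.12 over the 39 genes and -0.00 over all genes tested.

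The same-numbered libraries of both treatments deviated together from their group means, and a fit with the library number as a block was therefore made as well. It called 99 of the 13999 genes, 0.707%, and again 0 of the Wnt genes. At an adjusted p of at most 0.05 alone it passed 403 genes, 2.88%, and 1 of the Wnt genes, SFRP2. At an unadjusted p of at most 0.05, where 23.7% of all genes lay, there were 12 of the 39, of which SFRP2 and WNT7A were lower with Activin A and FZD8, FZD10, NKD1, RSPO1, WNT1, WNT2, WNT2B, WNT3, WNT5A and WNT6 higher.

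Among the 39 Wnt genes tested, SFRP2 had the lowest limma adjusted p between the treatments, with and without the block. It read 11.0, 9.81 and 7.29 FPKM with Activin A and 19.3, 16.2 and 16.3 with SB431542. Every Activin A library lay below every SB431542 library, and the log2 fold change was -0.83 ± 0.16 (SE). The limma adjusted p was 0.137 without the block and 0.0336 with it. The summed fibroblast, feeder or pericyte markers, at 51.6 to 78.2 FPKM with Activin A and 21.0 to 33.0 with SB431542, did not overlap between the treatments either, and neither did GATA6, at 18.0 to 22.8 and 7.37 to 15.0. Among the markers in that sum COL1A2, COL3A1 and DCN were higher with Activin A in every pair, whereas PDGFRB was lower in every pair, at 6.99, 8.38 and 8.12 FPKM against 11.0, 15.3 and 8.17, and COL1A1 overlapped. The epithelial sum overlapped between the treatments but was lower with Activin A in every pair, at 127, 423 and 48.2 FPKM against 217, 929 and 102. Its members went different ways. KRT8 was lower in every pair, with means of 157 and 375 FPKM, whereas TFAP2C was higher in every pair, with means of 9.64 and 2.88. CDH1, GATA3 and EPCAM were higher with Activin A in 2 pairs and KRT18 in 1. Of the 5 pluripotency markers found, LIN28A was lower with Activin A in every pair, with means of 119 and 339 FPKM, as were SOX2 and SALL4. NANOG was higher in every pair, and DNMT3B overlapped. The sum of these markers overlapped between the treatments, at 290 to 480 FPKM with Activin A and 317 to 624 with SB431542. The part of these markers in the results of this comparison was not tested.

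WNT3 read 31.1, 30.4 and 27.2 FPKM with Activin A and 21.5, 12.3 and 23.5 with SB431542. It was higher with Activin A in all 3 numbered pairs, most in number 2, but the log2 fold change of 0.65 (95% interval 0.11 to 1.19) had a limma adjusted p of 0.319, and 0.154 with the block. FZD10 read 223, 214 and 258 FPKM against 138, 210 and 173, with a log2 fold change of 0.43 (95% interval 0.05 to 0.81) and a limma adjusted p of 0.339. In number 2 the values were nearly level.

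RSPO1 had the largest fitted difference of the Wnt genes, a log2 fold change of 1.05, with a 95% interval from -0.71 to 2.82 without the block and from 0.40 to 1.70 with it. It read 5.81, 16.4 and 5.59 FPKM with Activin A and 1.38, 13.0 and 1.62 with SB431542. Activin A was the higher in all 3 pairs, least so in number 2, where both values were high. WNT1 was higher with Activin A in numbers 1 and 3 and slightly lower in number 2, with 3.18, 5.16 and 3.01 FPKM against 0.636, 5.64 and 0.702, and its interval with the block was 0.03 to 1.63. WNT7A, lower with Activin A in all 3 pairs, had a log2 fold change of -0.77 with an interval of -1.33 to -0.22 with the block (limma adjusted p = 0.131). The limma adjusted p was 0.590 for RSPO1 and 0.565 for WNT1, and with the block 0.102 and 0.201.

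The feedback targets gave no call. AXIN2 read 51.4, 82.6 and 56.1 FPKM with Activin A and 43.5, 76.2 and 59.0 with SB431542, a log2 fold change of 0.09 with a 95% interval from -0.49 to 0.68. NKD1 read 25.0, 32.5 and 41.1 FPKM against 20.8, 25.0 and 27.4 and was higher in all 3 pairs (limma adjusted p = 0.438, and 0.0729 with the block). SP5 had a log2 fold change of 0.05 (95% interval -0.59 to 0.69) and LEF1 one of 0.42 (95% interval -0.25 to 1.10). For the most abundant members of the other roles, the log2 fold change was 0.02 for WNT3A (95% interval -1.21 to 1.24), 0.38 for RSPO3 (95% interval -0.76 to 1.52) and 0.00 for LGR4 (95% interval -0.92 to 0.93). With the block the intervals were narrower, from 0.20 to 0.60 for NKD1, from -0.38 to 0.41 for WNT3A, from -0.18 to 0.93 for RSPO3, from -0.36 to 0.36 for LGR4 and from -0.09 to 0.28 for AXIN2.

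**Figure D3:**
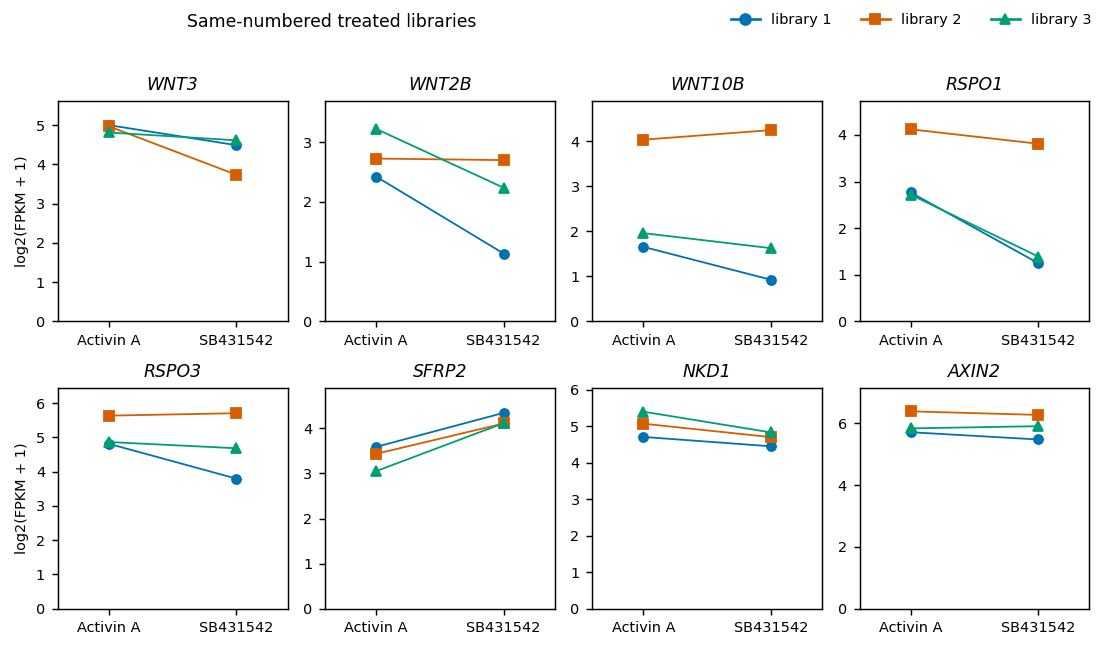
Each panel gives log2(FPKM + 1) of 1 gene in the Activin A and SB431542 libraries, with a line joining libraries of the same number (circles 1, squares 2, triangles 3); the vertical scale starts at 0 and differs between panels. SFRP2 is lower with Activin A in all 3 pairs, RSPO1 falls from Activin A to SB431542 in libraries 1 and 3 and little in library 2, and WNT10B stays high in library 2 under both.

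Of the other pathway genes, 52 were tested in this comparison and 0 were called without the block, beside 0.0929% of all genes. With the block SOST and BAMBI were called, 2 of 52 beside 0.707% of all genes. SOST, which encodes the co-receptor antagonist sclerostin, read 3.64, 8.35 and 1.50 FPKM with Activin A and 0.0348, 0.554 and 0 with SB431542 (log2 fold change 2.03; limma adjusted p = 0.171, and 0.0341 with the block). BAMBI, a decoy receptor of the TGF-β family that is also a Wnt target, read 21.9, 33.5 and 34.7 FPKM against 8.49, 15.0 and 17.3 (log2 fold change 1.11; limma adjusted p = 0.201, and 0.0163 with the block). Both were higher with Activin A in every pair. At the adjusted p alone the block passed 5 of the 52, beside 2.88% of all genes. Besides SOST and BAMBI these were MYC and TLE1, higher with Activin A (log2 fold changes of 0.40 and 0.60), and TNFRSF19. TNFRSF19 was lower with Activin A in every pair (log2 fold change -0.63; limma adjusted p = 0.157, and 0.0407 with the block).

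The libraries numbered 2 stood apart in many of these genes. Of the 41 Wnt genes that reached 0.1 FPKM in 3 or more of the 12 libraries, 14 were highest in library 2 of the knock-in, Activin A and SB431542 groups alike, that is 34.1%, where 10.3% of 14632 genes behaved so. They were the ligands WNT1, WNT3A, WNT6, WNT8B, WNT9A and WNT10B, the R-spondins RSPO1, RSPO2 and RSPO3, the receptors FZD2, FZD4, FZD6 and FZD9, and the target AXIN2. In 4 genes library 2 was the lowest in all 3 groups, WNT7A, WNT7B, FZD7 and LGR4, which is 9.76% beside 14.6% of all genes. Library 1 was the lowest in all 3 groups for 15 of the 41 genes, 36.6%, against 6.93% of all genes, and among these were AXIN2, LEF1, NKD1 and SP5. WNT8B reached 0.1 FPKM only in the libraries numbered 2 of the 4 groups and in Activin A library 1. DKK1 and SFRP5, counted as lowest in library 1, reached it in no library numbered 1 of those 3 groups. These genes passed the filter only through libraries in which they were higher. The counts describe 1 library per number and group and were not tested.

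WNT10B was one of the genes with a wide gap. With Activin A it read 15.4 FPKM in library 2 and 2.15 and 2.90 in libraries 1 and 3, and with SB431542 it read 18.0 against 0.899 and 2.09. In the knock-in lines library 2 was 4.99 times the next highest, with Activin A 5.33 times and with SB431542 8.63 times. RSPO1 gave 3.21, 2.82 and 8.04 times in the same order. WT library 2, which is not related to line 2 by its label, was the lowest of the WT libraries for WNT10B, WNT1, RSPO1 and WNT3A.

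Among the genes lowest in library 2, whose share was below that of all genes, WNT7A read 0.964, 0.802 and 1.06 FPKM in library 2 of the knock-in, Activin A and SB431542 groups, and between 2.62 and 7.78 in the libraries numbered 1 and 3 of those groups. LGR4 was likewise lowest in library 2, at 28.1, 31.6 and 23.6 FPKM. Summed over the 17 ligands, library 2 gave 107, 121 and 123 FPKM and library 1 gave 58.2, 74.0 and 55.1. The epithelial marker sum was also highest in the libraries numbered 2, at 492, 423 and 929 FPKM against 48.2 to 217 in the libraries numbered 1 and 3. KRT8, KRT18, CDH1, TFAP2C and GATA3 were each highest there in all 3 groups. EPCAM was highest there in none of them and lowest there in knock-in and SB431542. The part of the epithelial markers in this pattern was not tested. The deviations of same-numbered libraries from their group means correlated across genes at 0.502, 0.636 and 0.658 between knock-in and Activin A and at 0.512, 0.628 and 0.569 between knock-in and SB431542, for numbers 1, 2 and 3. These correlations are across genes, which are not independent replicates.

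**Figure D4:**
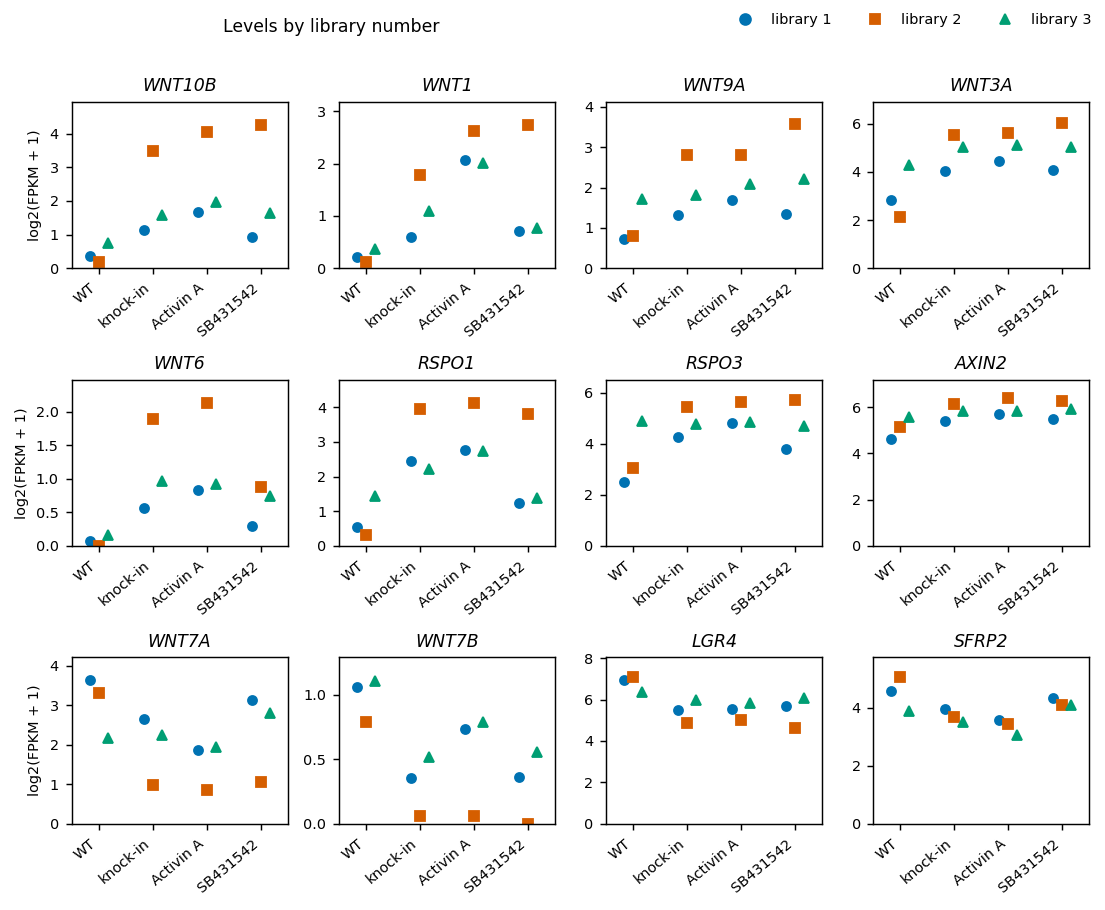
Each panel gives log2(FPKM + 1) of 1 gene in the 4 groups, with 1 point per library and the library number given by color and shape; the vertical scale starts at 0 and differs between panels. The squares of library 2 lie above the others in the knock-in, Activin A and SB431542 groups for WNT10B, WNT1, WNT9A, WNT3A, WNT6, RSPO1, RSPO3 and AXIN2, and below them for WNT7A, WNT7B and LGR4, while for SFRP2 the circles of library 1 are the highest in those groups.

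The 4 groups can only be set side by side, since no test was made between the treated libraries and the others, and any reading of the treated libraries against WT uses the same WT libraries as the knock-in comparison. NKD1 was at 20.8 to 41.1 FPKM in the 6 treated libraries, 25.4 to 36.0 in the knock-in lines and 3.67 to 14.1 in WT. WNT3 was at 12.3 to 31.1, 13.1 to 28.8 and 2.73 to 6.64 in the same order, and LGR4 at 23.6 to 67.0, 28.1 to 62.9 and 82.5 to 137. RSPO1 was at 1.38 to 16.4 FPKM in the treated libraries, 3.60 to 14.3 in the lines and 0.255 to 1.72 in WT, so that treated and WT values overlapped. The SB431542 values of NANOG, 11.8 to 27.2 FPKM, lay within the WT range of 9.71 to 27.6.

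Some of the genes lie close to each other in the genome. In the RefSeq annotation of Sscrofa11.1, WNT10B (chromosome 5, 14997377 to 15013928) and WNT1 (15010607 to 15015007) overlap by 3322 bp, and strand-specific counting is not stated, so that reads could be shared between them. On chromosome 2, WNT9A (51102757 to 51128346) and WNT3A (51153978 to 51203678) are 25631 bp apart, and both were highest in library 2 of the 3 reporter groups. On chromosome 12, WNT3 (17627291 to 17681197) has WNT9B (17709046 to 17733434) at 27848 bp, with 1 other gene starting between them, and on chromosome 15, WNT6 (120901471 to 120917359) has WNT10A (120925204 to 120939032) at 7844 bp. In these last pairs the levels were unlike, since WNT9B did not exceed 0.101 FPKM and WNT10A did not exceed 0.0562 FPKM in any library. RSPO1 lies on chromosome 6 (93664839 to 93690328), NKD1 on chromosome 6 (34223888 to 34319584) and LGR4 on chromosome 2 (32871837 to 32979150).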

How the data were processed

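RNA was sequenced in 12 libraries. Per the study's methods and processing notes, the authors used Trim Galore for trimming, mapped to Ssc11.1 by HISAT2 2.0.4, counted reads with featureCounts 1.6.4 and obtained FPKM with StringTie 1.3.3. The authors deposited gene-level FPKM in 2 tables, 1 with the knock-in and WT libraries and 1 with the treated libraries, which were tested separately. The authors tested read counts with DESeq2; read counts were not used here, so limma 3.58.1 (R 4.3.3) was run on log2(FPKM + 1) with a variance trend, after a filter of 0.1 FPKM in 3 or more of 6 libraries. Fold changes on this scale understate changes of low genes. Because depth is unknown, counting error is not given. Each table also holds a symbol and identifier per gene; 965 of 6907 rows without a symbol were named through an identifier table. The rows took coordinates from RefSeq by symbol (47 of 47).

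The members and lists were chosen with earlier results of these data known. Values per library were given by rule for called genes, genes at the fold criterion without overlap, the most abundant gene of each role, the feedback targets and genes with 1 knock-in line at least 3 times the next; the other values were chosen after they had been seen. The number pairing of the Activin A and SB431542 libraries rests on their labels and on the correlation of same-numbered deviations from group means across genes (0.400, 0.587 and 0.535). The code was tested on simulated data. The alternatives comprised other pseudocounts (0.1 and 0.01), other filters (none and 1 FPKM), rescaling (TPM, median-ratio and quantile), no trend, the replicate block, each library left out and the adjusted p alone. Leaving out the libraries numbered 2 was added after the data were seen. Promoter motifs were not analysed here.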

Additional observations from a re-analysis of the deposited data

How the results depend on the processing

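In knock-in against WT, the Wnt genes called numbered 8 with a pseudocount of 0.1, 7 with 0.01, 8 with TPM, 1 without a filter (WNT3) and 8 at the adjusted p alone. Calls among all genes were 538 of 14014 with a pseudocount of 0.1 and 501 of 14014 with 0.01. They were 459 of 14879 with TPM and 199 of 17527 without a filter, beside 324 of 14014 in the main fit. The Wnt genes called also varied with the libraries used. These Wnt calls ranged from 0 to 9 with 1 library left out, and were 0 without the libraries numbered 2, where 25 of all genes were called higher and 3 lower. With the replicate block, whose numbers did not pair these libraries (same-number correlations of -0.018, 0.009 and 0.094), they were 2 (NKD1 and SP5). Knock-in line 1 correlated best with WT library 2 (0.182). Of all genes, 346 were called higher and 192 lower with a pseudocount of 0.1, 181 lower with 0.01, 42 lower without a filter, 60 lower with the block, and 684 higher and 328 lower at the adjusted p alone. With 1 library left out, the range was 117 to 303 higher and 28 to 143 lower. The other pathway genes called were 1 without a filter, 1 with the block, 4 at the adjusted p alone, 0 without the libraries numbered 2, and 1 to 4 with 1 library left out. In Activin A against SB431542, called genes were 5 higher and 3 lower with a pseudocount of 0.01, 3 and 2 without a filter, 2 and 3 with a filter of 1 FPKM, 3 higher without a trend, 13 higher at the adjusted p alone, and 73 higher and 26 lower with the replicate block. They were 0 to 4 higher and 0 to 1 lower with 1 library left out, and 0 higher and 1 lower without the libraries numbered 2. The Wnt genes called were 0 in all of these, and other pathway genes called were 2 with the block. Among the genes named by rule, the sign turned for 7, none of them called in this comparison. LGR4 gave -0.0222 with TPM, -0.0228 with quantile scaling and -0.198 without the libraries numbered 2, where NOTUM gave 0.0202 and SP5 -0.0823, and WNT3A gave -0.0081 with TPM. With 1 library left out, AXIN2 ranged from -0.11 to 0.286, LGR4 from -0.42 to 0.316, NOTUM from -0.142 to 0.0674, RSPO3 from -0.0899 to 0.865, SP5 from -0.14 to 0.299, WNT10B from -0.46 to 1.28 and WNT3A from -0.47 to 0.507. Outside that set, FZD1, FZD2, FZD4, FZD6, FZD7, FZD9, RSPO2, WNT9A and WNT16 also changed sign with 1 library left out, and in knock-in against WT SFRP1 and WNT5A did. Why these values moved was not tested. For the genes followed singly, 315 of 375 values in knock-in against WT and 206 of 238 in Activin A against SB431542 stayed in the same direction and on the same side of the threshold.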
